A study of Homo sapiens and Mus musculus with 24 samples.

Results

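The genes described here are 8 mouse transcription factor genes listed for the identity of neuroblastoma or hippocampal cells: Gata2, Gata3, Hand2, Mycn, Neurod2, Neurod6, Tbr1 and Zbtb20. They were given as a list of names and found by Ensembl gene identifier among the 53715 genes of the mouse count files. The 8 genes, and the lists of related genes used below, were chosen with earlier results of these data known. Their values are therefore a description and no independent support. Gata2, Gata3, Hand2 and Mycn were listed for the sympathetic lineage, from which neuroblastoma arises, and Neurod2, Neurod6, Tbr1 and Zbtb20 for the forebrain.

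The study sequenced RNA recovered from the aqueous phase of a phenol-chloroform extraction, with and without UV irradiation of the living cells (UPA-seq). UV light joins RNA covalently to bound proteins, and RNA joined to protein leaves the aqueous phase, which the method reads as a lower level after irradiation. Lower recovery and poorer copying of crosslinked RNA into cDNA cannot be told apart in these counts. Of the 24 samples and 4 cell types, the 12 mouse samples were used, with 3 samples in each of 4 groups: nonirradiated Neuro2a, UV-irradiated Neuro2a, nonirradiated HippCulture and UV-irradiated HippCulture. Neuro2a is an established mouse neuroblastoma line. HippCulture is a primary culture of hippocampal cells from C57/BL6NCr embryos at E16.5, which the labels call neurons and which the authors treated with AraC, a drug against dividing cells, to remove glia. E16.5 is the age at dissection, and the authors kept the cells in culture for days after plating and AraC. The labels name no genetic change in Neuro2a or HippCulture. The study describes its sequencing replicates as biological triplicates, and the labels do not say how they were separated.

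In neurobiology these factors are known from different settings. GATA2, GATA3 and the bHLH factor HAND2 act in the network that gives sympathetic neurons their noradrenergic character, and MYCN, a member of the MYC family, is the oncogene amplified in many aggressive human neuroblastomas. NEUROD2 and NEUROD6 are bHLH factors of maturing excitatory neurons of the cortex and hippocampus, TBR1 is a T-box factor of glutamatergic projection neurons, and ZBTB20 is a zinc finger repressor that specifies hippocampal pyramidal neurons and is also found in astrocytes. Hand and Neurod factors bind E-box DNA as dimers with E proteins, and GATA factors bind the letters that give them their name.

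Neurod6 and Neurod2, the paired bHLH genes of the forebrain list, each have a single annotated transcript and were both abundant in HippCulture and nearly absent from Neuro2a, and the start of each is shown for that reason. The sequences run from 250 bases before to 20 bases after the annotated first base, 5′ to 3′ on the gene's strand, in the GRCm38 assembly. They cover chr6:55681244-55681513 (minus strand) for Neurod6 and chr11:98329629-98329898 (minus strand) for Neurod2. Capitals mark the E-box, CANNTG, which covers both strands, and the GATA letters on either strand, which are GATA with A or T before it and A or G after it.
Neurod6: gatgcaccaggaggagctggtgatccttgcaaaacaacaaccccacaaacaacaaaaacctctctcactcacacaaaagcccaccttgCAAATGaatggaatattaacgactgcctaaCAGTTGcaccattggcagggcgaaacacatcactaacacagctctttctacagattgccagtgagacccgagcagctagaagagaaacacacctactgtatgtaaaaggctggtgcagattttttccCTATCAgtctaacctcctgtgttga
Neurod2: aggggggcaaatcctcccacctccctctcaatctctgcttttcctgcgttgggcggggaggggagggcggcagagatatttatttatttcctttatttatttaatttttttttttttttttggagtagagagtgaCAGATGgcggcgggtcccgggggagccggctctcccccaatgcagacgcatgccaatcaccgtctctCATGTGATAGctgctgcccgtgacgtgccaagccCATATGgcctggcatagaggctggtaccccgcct

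The Neurod6 window held 2 E-boxes and 1 GATA match and that of Neurod2 held 3 and 1, of which an E-box and the GATA match of Neurod2 overlap. Of 21749 windows of the same length at protein-coding genes, 65.7% held at least 1 E-box and 25.2% at least 1 GATA match, so such matches are common and describe only these letters.

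Paralogs of a family can share reads where their transcripts are identical, and the longest identical stretches were short. Gata2 and Gata4 shared at most 23 bases and Gata2 and Gata3 at most 17, in each case within the ORF, in letters that code for a zinc finger. The 17 bases lie at positions 946 to 962 of the Gata2 ORF and 1012 to 1028 of the Gata3 ORF. Such stretches are the longest identical runs and need not be matching positions of the genes. These are shown because Gata2 and Gata4 were both present in Neuro2a while Gata3 was barely detected. Capitals mark the shared bases, with 20 bases of each transcript on both sides.
Gata2, compared with Gata4: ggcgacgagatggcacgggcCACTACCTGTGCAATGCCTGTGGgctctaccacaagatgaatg
Gata4: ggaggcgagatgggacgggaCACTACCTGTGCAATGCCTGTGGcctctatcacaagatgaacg
Gata2, compared with Gata3: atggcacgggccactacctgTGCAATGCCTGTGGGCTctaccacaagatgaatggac
Gata3: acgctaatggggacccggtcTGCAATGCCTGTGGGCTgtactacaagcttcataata
For Mycn and Myc the longest shared stretch was 12 bases, for Neurod2 and Neurod6 11 bases, and for Tbr1 and its paralog Eomes 14 bases.

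In the mm10 coordinates of the files, Gata2 lies at chr6:88193891-88207032 (plus strand), Gata3 at chr2:9857078-9890034 (minus), Hand2 at chr8:57320983-57324633 (plus) and Mycn at chr12:12936093-12941914 (minus). Neurod2 lies at chr11:98325415-98329648 (minus), Neurod6 at chr6:55677822-55681263 (minus), Tbr1 at chr2:61802930-61814114 (plus) and Zbtb20 at chr16:42875881-43642602 (plus). The counts are of reads over all annotated exons, UTRs included. Reads lying in several genes were counted for each, with no use of strand, so reads of overlapping genes cannot be told apart. Hand2os1, the antisense RNA also known as Upperhand, shared 461 of the 2351 exon bases of Hand2 (19.6%). Gm13256 shared 155 and 9230102O04Rik shared 77 exon bases with Gata3, and Gm9968 shared 104 and Mir568 shared 83 with Zbtb20. Mycn and Neurod2 had no other gene within 5 kb. The remaining genes within 5 kb shared no exon base: Gm38708 at Gata2, 4930412O13Rik at Gata3, Gm3279 at Neurod6, Psmd14 and Gm25966 at Tbr1, and 4932412D23Rik, BC002163, Gm25873, Gm15712, Gm37946, Gm15711 and Gm15713 at Zbtb20.

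The total count was 6910907 to 9163323 per sample. The 10 most abundant genes took 21.5% to 32.4% of the counts in nonirradiated and 40.3% to 52.4% in irradiated samples, and the 32.4% was in nonirradiated HippCulture replicate 3. Of marker lists for the cell types, the 12 sympathetic markers summed to 1045 to 1417 CPM (counts scaled to a library total of 1000000) in nonirradiated Neuro2a and to 168 to 207 CPM in nonirradiated HippCulture. In Neuro2a the highest were Chgb (734 CPM, and 83.9 CPM in HippCulture), Ret (296 and 9.20), Chga (135 and 85.8) and Alk (56.2 and 2.03). Th, the enzyme that starts catecholamine synthesis, was at 1.14 CPM in Neuro2a, and Slc6a2 and Chrnb4 were at 0.197 and 0.333 CPM. Of 10 sympathetic markers tested between the nonirradiated cell types, 8 were higher in Neuro2a, where 39% of all genes tested were higher. The other 2, Ddc (1.08 and 1.33 CPM) and Slc18a2 (6.32 and 6.12 CPM), did not pass. In nonirradiated Neuro2a the pan-neuronal markers summed to 744 to 874 CPM and the excitatory markers to 25.6 to 36.0 CPM. The astrocyte markers there summed to 61.6 to 101 CPM, mostly Aldoc (mean 78.9 CPM), and the progenitor markers to 1056.5 to 1534.2 CPM. In HippCulture all 6 pan-neuronal markers had a mean of at least 0.5 CPM and summed to 3374 to 3776 CPM. So had all 6 markers of excitatory neurons (1595 to 1796 CPM summed), all 7 of GABAergic neurons (228 to 249), all 7 of astrocytes (1231 to 1430), all 8 of oligodendrocytes and their precursors (116 to 140) and all 5 of progenitors (147 to 188), so markers of cell types other than excitatory neurons were present. Of 4 Cajal-Retzius markers 2 reached that level (362 to 404 CPM summed, mostly Reln), of 6 microglial markers 2 (6.83 to 7.64) and of 4 endothelial markers 1 (0.976 to 2.40). In nonirradiated Neuro2a, 2 of 7 GABAergic (4.11 to 5.78 CPM summed), 2 of 7 astrocyte and 5 of 8 oligodendrocyte markers (17.8 to 20.2) also reached 0.5 CPM. So did 3 of 6 microglial (10.2 to 12.3) and 2 of 4 endothelial markers (9.51 to 10.7). Reaching that level is thus no sign of a cell type by itself. In such bulk samples, fewer cells of a type and less RNA per cell cannot be told apart.

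Without irradiation, Hand2 and Gata2 were high in Neuro2a and all but absent from HippCulture, and Neurod6, Neurod2 and Tbr1 showed the opposite pattern. Mycn, although listed for the sympathetic lineage, was about 60-fold higher in HippCulture than in Neuro2a, and Gata3 was barely detected in Neuro2a. Zbtb20 was present in both and about 11-fold higher in HippCulture. Levels are given as CPM when samples are compared and as RPKM, which also divides by the exon length in kilobases, when genes are compared. A mean of at least 0.5 CPM was reached by 4 of the 8 genes in Neuro2a (Hand2, Gata2, Zbtb20 and Mycn) and by 5 in HippCulture (Neurod6, Neurod2, Mycn, Zbtb20 and Tbr1).

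**Figure D1:**
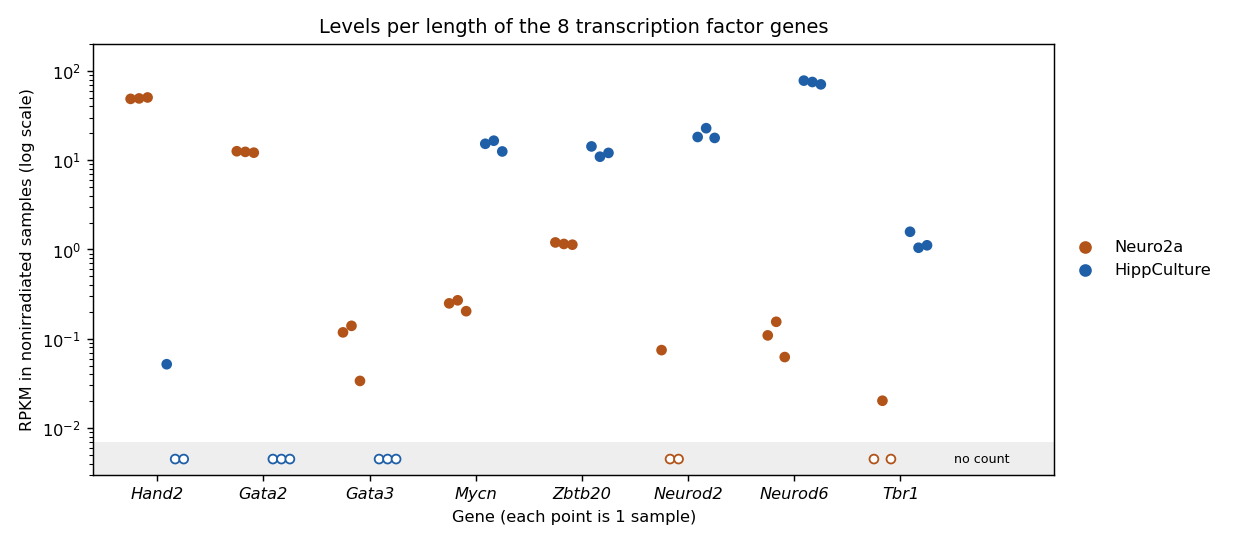
Level per length (RPKM, log axis) of the 8 genes in each nonirradiated sample, with Neuro2a in orange and HippCulture in blue and open points in the grey strip for samples without a count. Hand2 and Gata2 are high only in the 3 Neuro2a samples, and Mycn, Zbtb20, Neurod2, Neurod6 and Tbr1 are higher in all 3 HippCulture samples.

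Hand2, which is needed for sympathetic neurons to become noradrenergic, had the highest level of the 8 genes in nonirradiated Neuro2a, with 114, 116 and 118 CPM in the 3 samples. This was 49.4 ± 0.914 RPKM (SD, n = 3), above 95.3% of the 13119 protein-coding genes with a mean of at least 0.5 CPM in these cells. In nonirradiated HippCulture a single count was found in replicate 1 and none in the others. The pooled counts, 2895 against 1, differed 2881-fold, with an exact 95% interval of 517 to 113833, which covers counting error only. Hand2os1 followed it, at 147 to 170 CPM in Neuro2a and 3 counts in all in HippCulture.

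Gata2 was next in Neuro2a, with 67.9, 66.9 and 65.5 CPM and 12.4 ± 0.227 RPKM (SD, n = 3), above 76.5% of protein-coding genes. The 3 samples lay close together. No count was found in any nonirradiated HippCulture sample, a total of 24853499 counts, and taking 3 counts over the group as the limit Gata2 was at least 554-fold higher in Neuro2a. Gata3, which acts with Gata2 in developing sympathetic neurons, had 4, 5 and 1 counts in Neuro2a, or 0.386 ± 0.223 CPM (SD, n = 3), and none in HippCulture. Its 10 counts in all were 3.32 times the limit for HippCulture, with the counting error of the 10 left out. Gata3 was too low for any test of irradiation.

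Mycn had 7, 8 and 5 counts in nonirradiated Neuro2a, or 0.821, 0.889 and 0.671 CPM. In nonirradiated HippCulture it had 412, 408 and 378 counts, or 50.3, 54.4 and 41.3 CPM. Every HippCulture sample was far above every Neuro2a sample, and the log2 difference, Neuro2a minus HippCulture, was -6.03 ± 0.17 (SE, adjusted p = 3.8e-16 by the quasi-likelihood test of edgeR, n = 3 a group). Per length it stood above 4.83% of expressed protein-coding genes in Neuro2a and above 81.8% of 13977 in HippCulture. In this comparison 41.4% of the 20940 genes tested were lower and 39% higher in Neuro2a, so a difference as such was common.

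The other genes of the MYC family differed in both directions, as the plot of the GATA, MYC and NEUROD families shows. Myc, the founding member, was at 67.7, 72.4 and 59.1 CPM in nonirradiated Neuro2a and at 11.7, 11.5 and 9.39 CPM in HippCulture (log2 difference 2.48 ± 0.11, edgeR adjusted p = 2.7e-13). Mycl was at 1.41, 1.44 and 2.55 CPM in Neuro2a and at 62.7, 69.4 and 62.2 CPM in HippCulture (log2 difference -5.32 ± 0.16, edgeR adjusted p = 1e-15). Per length, Myc had the highest level of the 3 in Neuro2a (21.7 to 26.7 RPKM), and Mycn and Mycl lay above Myc in HippCulture. Of the GATA family, Gata4, a factor better known from heart and endoderm, was the other gene present in Neuro2a, at 20.3, 17.2 and 13.8 CPM, with no count in nonirradiated HippCulture and thus at least 143-fold higher. Gata1 was at 0.402 CPM in Neuro2a, and Gata5 and Gata6 had 1 count each. Neurod1 was at 21.7, 14.5 and 19.6 CPM in HippCulture against 1 count in Neuro2a.

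**Figure D2:**
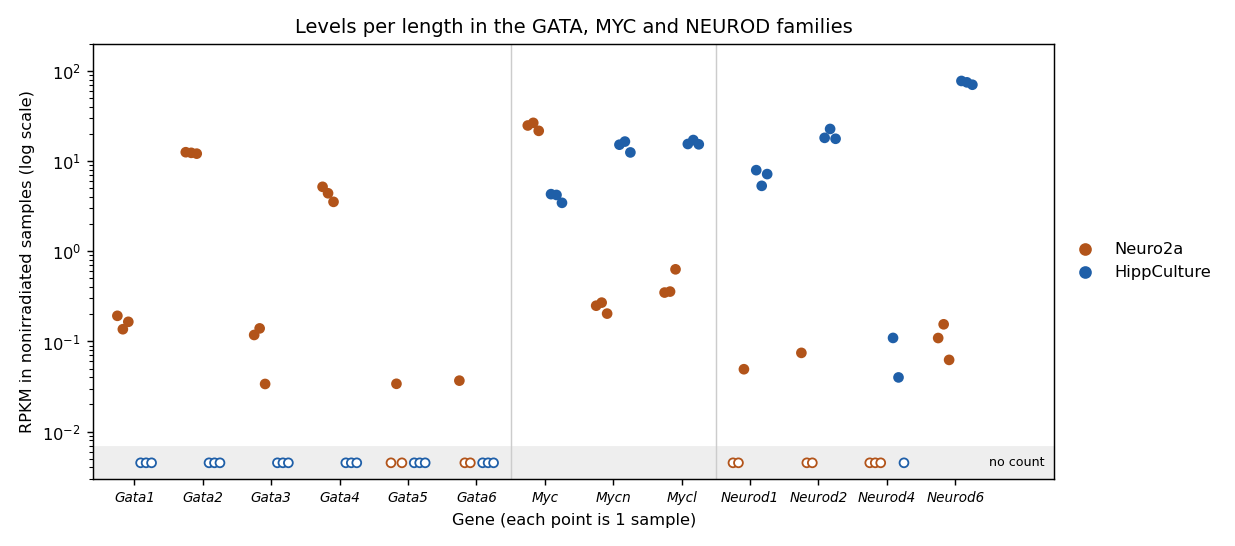
Level per length (RPKM, log axis) of genes of the GATA, MYC and NEUROD families in each nonirradiated sample of Neuro2a (orange) and HippCulture (blue), with open points for samples without a count. Myc is the MYC gene with the highest level in Neuro2a and Mycn and Mycl lie above Myc in HippCulture, while Gata2 and Gata4 are the GATA genes above 1 RPKM in Neuro2a.

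Among the forebrain genes, Neurod6 had the highest level in nonirradiated HippCulture, with 167, 161 and 152 CPM and 74.5 ± 3.60 RPKM (SD, n = 3), above 97.9% of expressed protein-coding genes. In Neuro2a it had 2, 3 and 1 counts. The pooled counts differed 665-fold, with an exact 95% counting interval of 305 to 1813. Neurod2 was at 57.1, 71.7 and 55.8 CPM in HippCulture and had 2, 0 and 0 counts in Neuro2a, a 762-fold difference with an interval of 210 to 6295. Tbr1 was much lower, at 8.66, 5.74 and 6.11 CPM in HippCulture, with a single count in Neuro2a (171-fold, interval 30.2 to 6786).

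Zbtb20 was at 36.8, 35.4 and 34.8 CPM in nonirradiated Neuro2a and at 438, 336 and 370 CPM in HippCulture, with no overlap. The log2 difference was -3.56 ± 0.11 (SE, edgeR adjusted p = 1.8e-15, n = 3 a group). It had the largest total count of the 8 genes in HippCulture, but its exons span 30730 bases, so that per length it stood at 12.4 ± 1.69 RPKM there and at 1.16 ± 0.035 RPKM in Neuro2a (SD, n = 3).

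By mean RPKM the order in HippCulture was Neurod6, Neurod2, Mycn, Zbtb20 and Tbr1. The samples of Mycn (from 12.5 RPKM) and Zbtb20 (up to 14.3 RPKM) overlapped, whereas those of the other neighbours in the order did not. In Neuro2a the order was Hand2, Gata2, Zbtb20 and Mycn without overlap, and the 4 genes below 0.5 CPM came after them, at 0.109 RPKM or less. The order did not change with TPM, with TMM-scaled library sizes or with the length of the longest transcript.

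Other factors of each lineage are given from 2 lists, which were also chosen with earlier results of these data known. Of 14 further sympathetic factors, 12 were tested between the nonirradiated cell types, and 7 were higher and 5 lower in Neuro2a, where 39% of all genes were higher and 41.4% lower. Their median log2 difference was 2.51 against -0.02 over all genes tested, with values from -5.98 to 7.17. The summed level of the 14 factors went the other way, at 366 to 411 CPM in Neuro2a and 446 to 531 CPM in HippCulture. The 4 with the highest level in Neuro2a were Sox4 (199 CPM, and 147 CPM in HippCulture), Meis1 (61.4 and 2.09 CPM), Sox11 (52.1 CPM) and Phox2a (27.8 CPM). Phox2a, a homeodomain factor of noradrenergic neurons, had only 4 counts in HippCulture, but Sox11, a factor of young neurons, was higher in HippCulture (242 CPM, log2 difference -2.35 ± 0.09, edgeR adjusted p = 4.3e-14). Of 20 further forebrain factors all were tested, and 17 were lower in Neuro2a, 1 was higher (Pax6) and 2 did not pass (Cux1 and Eomes), with a median log2 difference of -6.17. The 4 highest in HippCulture were Zbtb18 (415 CPM), Mef2c (178 CPM), Lhx2 (87.2 CPM) and Bcl11b (75.2 CPM), with 61.5, 0.321, 1.04 and 4.26 CPM in Neuro2a.

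Of 11 genes that act with the 8 factors, all had a mean of at least 0.5 CPM in nonirradiated HippCulture and 10 in nonirradiated Neuro2a, where Zfpm2, a cofactor of GATA factors, had 3 counts. Between the cell types 5 of these partners were higher and 5 lower in Neuro2a and 1 did not pass, near the 39% and 41.4% of all genes, with a median log2 difference of 0.23. The highest were the E proteins Tcf4 (255 CPM in Neuro2a and 518 in HippCulture) and Tcf12 (100 and 71.4 CPM), which pair with HAND and NEUROD factors, Mga (207 and 107 CPM), which pairs with MAX, and Cask (80.9 and 205 CPM), a partner of TBR1. In the list of 12 paralogs of the 8 genes, 6 were tested, and 2 were higher (Gata4 and Myc), 3 lower (Mycl, Neurod1 and Zbtb45) and 1 not called (Eomes, also in the forebrain list).

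With UV irradiation, Zbtb20 had the lowest log2 change of these genes in both cell types. In Neuro2a, Gata2 fell as well while Hand2 rose relative to the bulk of genes (but fell with library sizes alone), and in HippCulture Mycn and Neurod2 fell modestly, the latter with a call that was lost in 4 of 6 fits that left out a sample. Changes are log2 UV/nonirradiated after TMM scaling, which sets the trimmed mean change of all genes near 0, and each sentence on a direction is relative to that. Scaling by library sizes alone moved the median of all tested genes in Neuro2a from -0.14 to -1.32 and the share of lower among called genes from 53.3% to 92.4%. The same scaling moved the HippCulture median from -0.04 to -0.59 and that share from 49.8% to 87.4%, and it turned Hand2 and Mycn in Neuro2a from higher to lower. As the counts fix only proportions, the absolute change of a gene is not known.

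**Figure D3:**
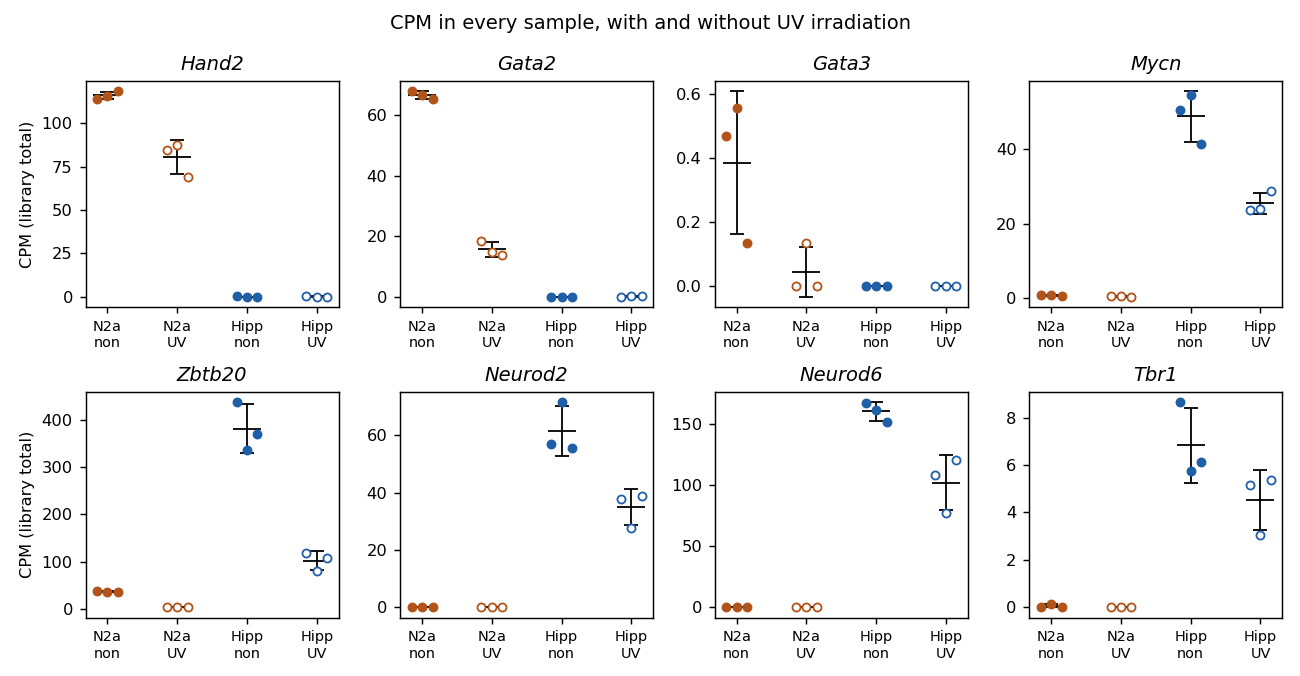
CPM of the library total in every sample for the 8 genes, with nonirradiated samples as filled and UV-irradiated samples as open points, Neuro2a in orange, HippCulture in blue, and bars for the mean ± SD of 3 samples. Zbtb20 drops from 34.8 to 36.8 CPM to 2.76 to 4.30 CPM in Neuro2a, while Hand2 keeps 69.2 to 87.7 of its 114 to 118 CPM.

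In Neuro2a, 4 of the genes were tested, of which 2 fell, 1 rose (Hand2, lower with library sizes alone) and 1 did not pass, where 33% of the 17425 genes tested fell and 28.9% rose. All had to be at 0.5 CPM without irradiation to be tested. Zbtb20 had 314, 319 and 259 counts without and 29, 32 and 21 with irradiation, or 3.72, 4.30 and 2.76 CPM with irradiation. Its log2 change was -2.12 ± 0.16 (SE, edgeR adjusted p = 6e-08, n = 3 a group), and 3.26% of the 13119 protein-coding genes tested had a lower value. Gata2 went from 67.9, 66.9 and 65.5 CPM to 18.4, 14.8 and 13.8 CPM, a log2 change of -0.90 ± 0.11 (edgeR adjusted p = 7.1e-06), with 21.2% of protein-coding genes below it. In each of these genes all irradiated samples were below all nonirradiated samples.

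Hand2 went from 114, 116 and 118 CPM to 84.8, 87.7 and 69.2 CPM. Every irradiated sample was lower by CPM, yet relative to the bulk of genes it rose by 0.67 ± 0.10 on the log2 scale (SE, edgeR adjusted p = 4.7e-05, n = 3 a group), and with library sizes alone the value was -0.53 (edgeR adjusted p = 0.00045). After TMM scaling 73.3% of protein-coding genes had a lower value. Hand2os1, which shares exon bases with it, went from 147, 170 and 153 CPM to 66.6, 79.9 and 76.3 CPM, a log2 change of 0.12 ± 0.11 (edgeR adjusted p = 0.35). Mycn had 20 counts without and 11 with irradiation, and its log2 change of 0.45 ± 0.50 (edgeR adjusted p = 0.47, 95% interval -0.53 to 1.43) leaves both directions possible. Gata3 had 1 count in the irradiated samples, and Neurod2, Neurod6 and Tbr1 had none.

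In HippCulture, 5 of the genes were tested, of which 3 fell and 2 did not pass, where 25.9% of 18488 genes fell and 26.1% rose. Zbtb20 went from 438, 336 and 370 CPM to 119, 80.5 and 107 CPM. The log2 change was -1.36 ± 0.11 (SE, edgeR adjusted p = 2.4e-09, n = 3 a group), and 1.37% of the 13977 protein-coding genes tested had a lower value. Mycn went from 50.3, 54.4 and 41.3 CPM to 23.5, 23.9 and 28.7 CPM, a log2 change of -0.38 ± 0.10 (edgeR adjusted p = 0.0038). The groups of both genes did not overlap.

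Neurod2 and Neurod6 stood apart little from the bulk of genes. Neurod2 went from 57.1, 71.7 and 55.8 CPM to 38, 27.6 and 39.0 CPM, a log2 change of -0.26 ± 0.10 (SE, edgeR adjusted p = 0.029, n = 3 a group). This call was lost without nonirradiated replicate 2 (adjusted p = 0.19), nonirradiated replicate 3 (0.14), irradiated replicate 2 (0.094) or irradiated replicate 3 (0.06). Neurod6 went from 167, 161 and 152 CPM to 109, 76.8 and 121 CPM, a log2 change of -0.11 ± 0.09 (edgeR adjusted p = 0.32, 95% interval -0.28 to 0.07). Tbr1 went from 8.66, 5.74 and 6.11 CPM to 5.14, 3.04 and 5.37 CPM, a log2 change of -0.04 ± 0.21 (edgeR adjusted p = 0.89, 95% interval -0.45 to 0.37). After TMM scaling the groups of Neurod6 and of Tbr1 overlapped. With library sizes alone both passed the test, at -0.65 and -0.58. Irradiated HippCulture held 3 counts of Gata2, 2 of Hand2 and none of Gata3.

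**Figure D4:**
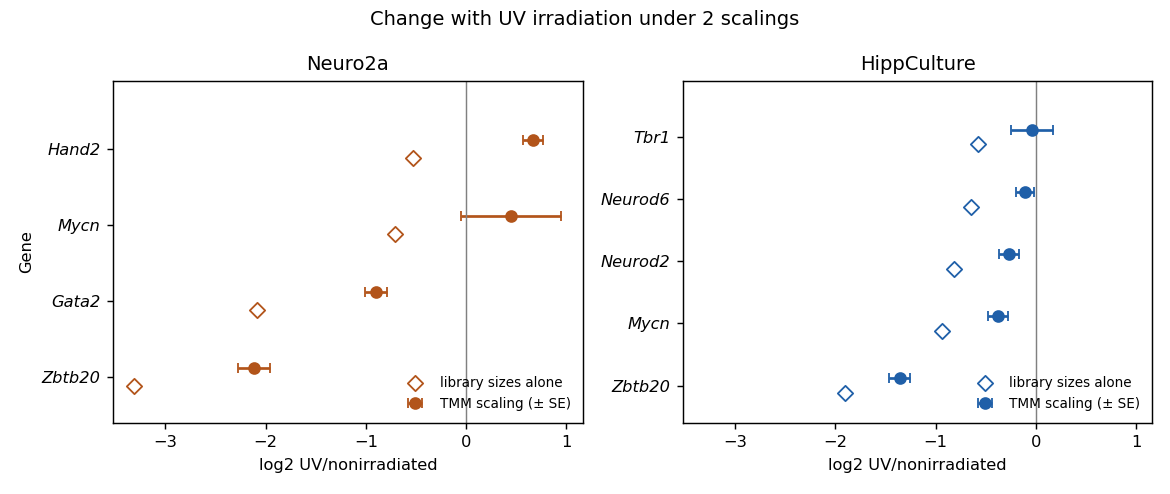
Log2 UV/nonirradiated of the genes tested in Neuro2a and in HippCulture, with circles for TMM scaling with the standard error and diamonds for library sizes alone. Zbtb20 is lowest in both panels under both scalings, at -2.12 and -1.36 with TMM, and Hand2 lies at 0.67 with TMM but at -0.53 with library sizes alone.

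Only Zbtb20 and Mycn were high enough in both cell types for the change with irradiation to be compared between them. For Zbtb20 the change in Neuro2a was lower than that in HippCulture by a log2 difference of -0.77 ± 0.23 (SE, interaction term of edgeR over 12 samples, adjusted p = 0.017), where the median over 14973 genes was -0.14 and 16.1% of genes were called lower and 8.39% higher. With the size factors of DESeq2 the share of lower among called genes went from 65.7% to 51.8%, and with library sizes alone to 99.2%, with the median over all genes at -0.77. Without irradiated Neuro2a replicate 3 the Zbtb20 difference was -0.63 and no longer passed (adjusted p = 0.076). For Mycn the difference was 0.82 ± 0.45 (adjusted p = 0.27, 95% interval -0.06 to 1.71).

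The transcripts of the 8 genes differ most in the 3′ UTR. The annotated transcript with the longest ORF was taken, and among equal ORFs the longest transcript. Counts per gene do not show which 3′ end the cells use. By this choice Zbtb20 has a 3′ UTR of 23858 bases, longer than in 99.98% of 13645 protein-coding genes expressed in HippCulture, where the median was 1017 bases. Its ORF is 2226 bases. The other 7 have 3′ UTRs of 773 (Hand2), 815 (Neurod6), 913 (Mycn), 1292 (Gata3), 1536 (Gata2), 1676 (Tbr1) and 1770 bases (Neurod2). In Neuro2a the tested genes in order of rising log2 change were Zbtb20, Gata2, Mycn and Hand2, which is also their order from the longest to the shortest 3′ UTR, although Mycn lay within its error of Hand2. In HippCulture the order was Zbtb20, Mycn, Neurod2, Neurod6 and Tbr1, which is not, and the part of length was not tested.

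**Figure D5:**
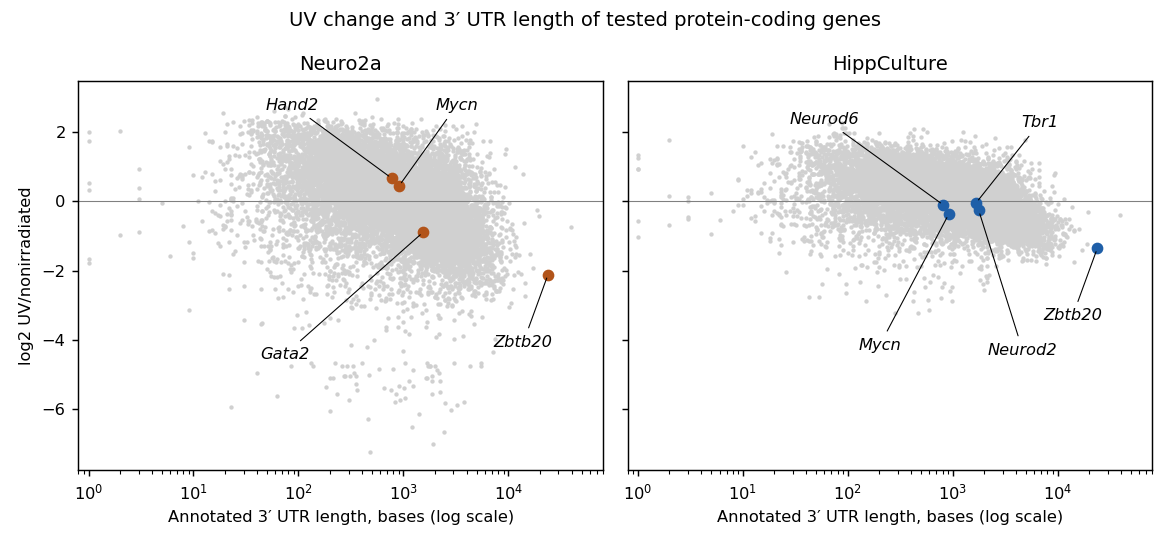
Log2 UV/nonirradiated against annotated 3′ UTR length (bases, log axis) for tested protein-coding genes, in grey, with the genes described here in colour, for Neuro2a (left) and HippCulture (right). Zbtb20, with 23858 bases, lies at the far right and low in both panels, while the other genes lie between 773 and 1770 bases.

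The lists of related factors give the setting. In Neuro2a, 4 of 11 sympathetic factors tested fell and 3 rose, with a median log2 change of -0.25, and 5 of 12 forebrain factors fell and the others did not pass, with a median of -0.99, against a median of -0.14 over all genes tested. Sox4 and Sox11 fell most of the 4 named sympathetic factors, by log2 changes of -1.94 ± 0.12 and -2.43 ± 0.15, Meis1 fell (-1.08 ± 0.13) and Phox2a rose (0.69 ± 0.16, but -0.50 with library sizes alone). In HippCulture, 12 of 20 forebrain factors fell, 4 rose and 4 did not pass, with a median of -0.39 against -0.04 over all genes. Zbtb18 (-0.89 ± 0.08), Mef2c (-1.15 ± 0.08) and Bcl11b (-1.44 ± 0.11) fell and Lhx2 rose (0.34 ± 0.08, but -0.21 with library sizes alone), all by the edgeR test with the adjusted p at 0.0014 or less. There 3 of 7 sympathetic factors fell and 2 rose (median -0.14). Over all factor and marker lists, 8 of 11 genes called higher in Neuro2a and 12 of 27 in HippCulture were below 0 with library sizes alone.

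Among the partners, 5 of 10 fell and 2 rose in Neuro2a (median -0.44), and 6 of 11 fell and 2 rose in HippCulture (median -0.31). Tcf4 fell in both, by log2 changes of -2.24 ± 0.11 and -1.22 ± 0.10, as did Tcf12 (-1.33 ± 0.10 and -0.71 ± 0.10), Mga (-1.29 ± 0.09 and -0.62 ± 0.11) and Cask (-1.11 ± 0.13 and -0.92 ± 0.09). Of the paralogs, 1 of 5 fell in Neuro2a, namely Myc (-0.45 ± 0.11, edgeR adjusted p = 0.0028), and in HippCulture 2 of 5 fell (Mycl, -0.30 ± 0.10, and Neurod1, -0.47 ± 0.19) and 1 rose (Zbtb45, 0.87 ± 0.15, and 0.33 with library sizes alone). All of these shares sit beside background shares of 33% and 28.9% in Neuro2a and of 25.9% and 26.1% in HippCulture.

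The markers of the cell types in HippCulture are given beside the 25.9% of all genes that fell and the 26.1% that rose with irradiation. The lists given here are small, from 2 Cajal-Retzius to 8 oligodendrocyte markers tested. Of the astrocyte markers 1 of 7 fell and 4 rose (median log2 change 0.45), of the excitatory markers 3 of 6 fell and 2 rose (-0.19), of the GABAergic markers 3 of 7 fell (-0.03), of the oligodendrocyte markers 2 of 8 fell and 3 rose (0.24), and of the progenitor markers 3 of 5 rose (0.27). Of the pan-neuronal markers 3 of 6 fell and 2 rose (-0.22), of 8 sympathetic markers tested 1 fell and 2 rose (-0.03), and of 2 Cajal-Retzius markers tested 1 fell and 1 rose. These directions, too, are relative to the bulk of genes. Their part in the results was not tested.

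By Pearson's r of log2 (TMM-scaled CPM + 0.5) over the 12 samples, which share the contrast of the cell types and of irradiation, the genes most like Hand2 among 16102 were Ifi30, Sohlh2 and 8030474K03Rik (r of 0.999 each). Those most like Gata2 were Lgmn, Pax3 and Slfn3 (r from 0.998 to 0.999), those most like Mycn were Gm28221, B630019K06Rik and Pou3f1, and those most like Zbtb20 were Gnaq, 4833422C13Rik and Wrb (r from 0.997 to 0.998). For Neurod2 they were Cbln1, Sirpa and Elmod1, for Neurod6 Apba2, Pou3f3 and Khdrbs3, and for Tbr1 Ntn4, Kcnv1 and Lrrtm3. Between 1207 and 3107 genes had an r above 0.95 with each of these 7, so a high r is common here, and Gata3 was too low for the measure.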

How the data were processed

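RNA from nonirradiated and UV-irradiated Neuro2a and HippCulture cells, 3 samples each, was used, grouped by sample title. Human samples were not used here. Per the labels and methods, the authors depleted ribosomal RNA and mapped reads to mm10 with TopHat2 2.1.1 (version from the submitters' processing notes). Per the file headers, the deposited counts per gene are from featureCounts 1.6.1 on exons of GENCODE M17, with reads in several genes counted for each and no strand option. The labels name a stranded kit, and the paper another. The values are whole numbers without normalization. Symbols came from GENCODE M21, matched for 53620 of 53715 genes (99.8%), as did exons and transcripts, and promoter windows came from the GRCm38 assembly. The first 20 bases equalled the transcript in 99.5% of windows.

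CPM and RPKM use the library total of 6910907 to 9163323 counts. Intervals and the limit of 3 counts over a group cover counting error only. The UV comparison of each cell type (n = 3 against 3), the baseline difference and the interaction term (12 samples) were fitted with the quasi-likelihood test of edgeR 4.0.16 (R 4.3.3) with TMM scaling, on genes with a mean of at least 0.5 CPM in the nonirradiated samples of the cell type (of either for the baseline, of both for the interaction). P-values were adjusted by Benjamini-Hochberg over all genes tested, with a threshold of 0.05, and the SE is the log2 change divided by the square root of F. The fits were tested on simulated data. Those data were given no shift in composition between the groups, so they do not bear on the choice of scaling. By exact two-sided permutation of 3 against 3, the smallest p possible is 0.1. Same-numbered nonirradiated and irradiated samples correlated at 0.286, 0.103 and 0.142 (deviations from group means) in Neuro2a, all over the limit of 0.1 set for pairing. Nonirradiated Neuro2a replicate 2 passed narrowly, and correlated at 0.097 with irradiated replicate 3. In HippCulture 2 of 3 pairs were under 0.1. The main fits of both cell types used no pairing, and the replicate block was run as an alternative.

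Alternatives were other scalings, filters, DESeq2 1.42.0, the replicate block and leaving out each sample. The 8 genes and the gene lists (sympathetic and forebrain factors, paralogs, partners and cell type markers) were chosen with earlier results of these data known. Named genes are the 8, genes sharing exon bases or within 5 kb, up to 4 genes of each list with the highest nonirradiated CPM in the cell type described, and for each of the 8 the 3 most alike in Pearson's r. Th, Slc6a2, Chrnb4, Ddc, Slc18a2, Zfpm2, Reln, Pax6, Cux1, Eomes, Gata1, Gata5, Gata6, Zbtb45 and Neurod1, where outside that rule, were named after their values were seen.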

Additional observations from a re-analysis of the deposited data

Results flagged for a closer look

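The change of Zbtb20 with UV irradiation differed between the cell types by the interaction term of edgeR, with a log2 difference, Neuro2a minus HippCulture, of -0.77 (adjusted p = 0.017). The Neuro2a samples went from 34.8 to 36.8 CPM to 2.76 to 4.30 CPM and the HippCulture samples from 336 to 438 CPM to 80.5 to 119 CPM. The call was lost without irradiated Neuro2a replicate 3. A lower value than that of Zbtb20 was held by 13.6% of the 12065 protein-coding genes in this fit. Of all 14973 genes, 16.1% were called lower, so such a difference was not particular to Zbtb20. Groups of 3 samples were not tested for outlying samples.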

How the results depend on the processing

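The changes of Zbtb20 and Gata2 with irradiation within each cell type where tested, of Mycn in HippCulture and of every baseline difference kept their direction and their side of the threshold under all alternatives run. With library sizes alone, Hand2 (-0.53) and Mycn (-0.71) in Neuro2a reversed, Neurod6 (-0.65) and Tbr1 (-0.58) in HippCulture passed the test, and the genes called lower and higher became 12852 and 1058 in Neuro2a, 9149 and 1320 in HippCulture, and 7519 and 64 for the interaction, from 5746 and 5033, 4791 and 4822, and 2411 and 1256. That setting drops the composition factor. For the interaction, testing every gene with at least 1 count gave 766 higher calls and a mean of 0.5 CPM over all samples gave 711. Leaving out each sample gave Neurod2 values of -0.31 to -0.16 (4 of 6 not passing), Tbr1 values of -0.15 to 0.16 with the reversals at 0.16 and 0.08 (without nonirradiated replicate 1 and without irradiated replicate 2), and Zbtb20 interaction values of -0.92 to -0.63. The cause was not tested. With the replicate block no call of the 8 genes changed: Zbtb20 was -2.12 in Neuro2a and -1.36 in HippCulture, Hand2 0.66, Gata2 -0.90, Neurod2 -0.26 (adjusted p = 0.018) and the Zbtb20 interaction -0.77 (adjusted p = 0.001). In both cell types each sample correlated best with its own number. Depth limits Gata3 and Mycn in Neuro2a, with 10 and 20 nonirradiated counts.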
